A study of Homo sapiens with 4 samples.

Results

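The regions described here are strong binding sites of PPARG that chromatin immunoprecipitation followed by sequencing (ChIP-seq) listed in the lung adenocarcinoma line NCI-H2347 and not in a like line, NCI-H1993. They were selected by measured values: a score from the authors' peak caller of at least 100 in the NCI-H2347 list, no overlap (0 bp) with any peak of the NCI-H1993 list, a width of at most 2500 bp and a place on an assembled chromosome. The rule found 455 sites among the 2225 peaks of NCI-H2347, and the NCI-H1993 list against which they were compared held 1419. Because score, overlap and width chose them, their values on these 3 measures are descriptions and were not tested. Absence means that no peak was listed there in NCI-H1993. Signal below the calling threshold was not part of the lists, and read depth is unknown for both libraries.

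The 4 samples of the series were 1 ChIP and 1 input library (unprecipitated chromatin) for each line. Inputs had no part in what follows. Both lines carried a bacterial artificial chromosome, a large piece of cloned genomic DNA, from which PPARG was expressed with an EGFP-containing tag, and the tagged protein was captured with a goat antibody raised against EGFP. The sites are therefore those of the tagged protein. How much of it each line made, and whether a line was a single clone, are not stated in the labels. The labels list no drug treatment, although both lists carry the unexplained letters PIO in their names, so whether a ligand was given is not known here. Peak lists hold no expression values by which to check the lung epithelial identity of the lines. With 1 library per line and no replicate, no p-value was computed, and every difference is one between these lists.

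PPARG is a nuclear receptor that is switched on by fatty acids, their oxidised derivatives and the thiazolidinedione drugs. It binds DNA as a pair with the retinoid X receptor, typically at a direct repeat of the half-site AGGTCA with a single base between the copies. It is the master regulator of fat cell formation, and in the lung it is best known from alveolar macrophages and from the differentiation of epithelial cells. Sites of such receptors lie mostly in enhancers, and their occupancy depends on which enhancers a given cell type has open. No hg19 genome or gene annotation was at hand, so the sites are identified by position on hg19, and their sequences, motifs and nearest genes are not given.

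Most strong NCI-H2347 peaks had no NCI-H1993 counterpart, and the share fell as the score rose. Among the 730 NCI-H2347 peaks that met the limits on score, width and chromosome, the 455 sites were 62.3% (95% Wilson interval 58.8% to 65.8%), and the other 275 overlapped an NCI-H1993 peak. The background share without overlap was 78.3% over the whole list and 86.3% among the peaks with a score under 100. Since overlap is part of the rule, nothing is read from these shares about the sites. In the score range from 100 to 120, 160 of 207 peaks were absent from NCI-H1993, or 77.3% (71.1% to 82.5%). The share was 64.0% (103 of 161) from 120 to 150, 60.2% (109 of 181) from 150 to 200 and 50.4% (62 of 123) from 200 to 300. From 300 upward it was 36.2%, 21 of 58 peaks (25.1% to 49.1%). Even so, the peaks ranked 2, 3 and 5 in the whole NCI-H2347 list were among the absent ones. The same rule turned round, strong NCI-H1993 peaks absent from NCI-H2347, found 143 of 327 peaks, 43.7% (38.5% to 49.1%), a value that depends on the unknown depth of each library and is given for scale only.

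**Figure D1:**
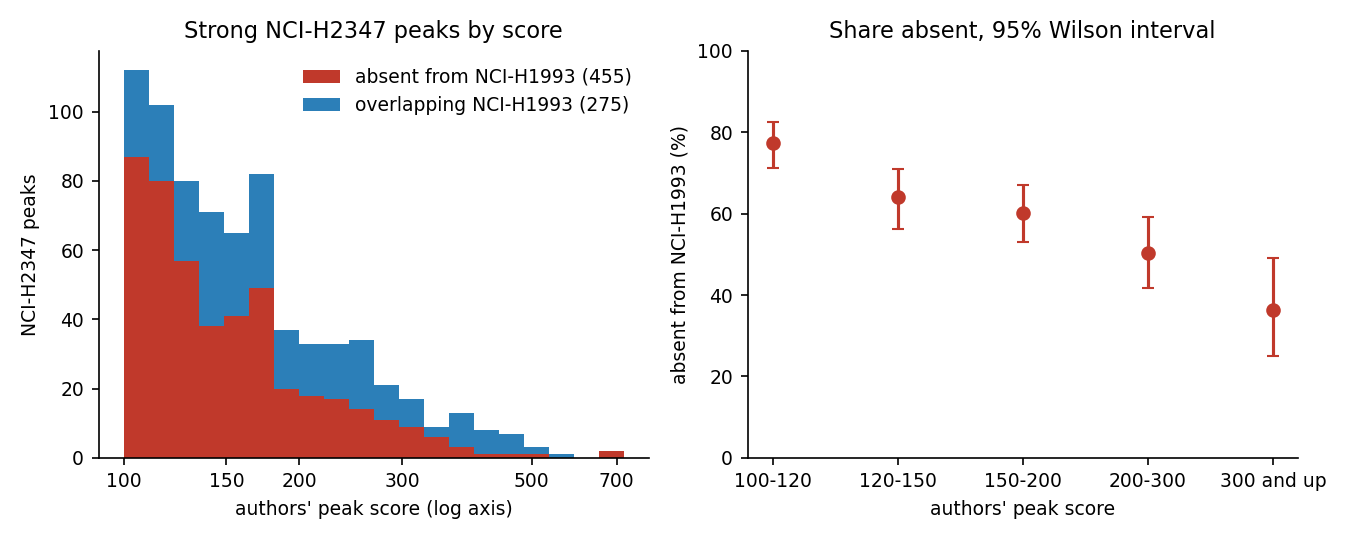
Left, number of strong NCI-H2347 peaks (vertical axis) by the authors' score (log axis), split into the 455 absent from NCI-H1993 and the 275 overlapping one of its peaks. Right, the percentage absent in 5 score ranges with 95% Wilson intervals, which falls from 77.3% to 36.2%.

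The score of the 455 sites had a median of 137 (quartiles 113 and 177) and reached 707. The lowest members stood at 100.27 on chromosome 2 from 223837742, at 100.3 on chromosome 19 from 33781706 and at 100.34 on chromosome 14 from 62031123. The unshared peaks just under the limit scored 99.96 on chromosome 12 from 29394817, 99.9 on chromosome 21 from 36388102 and 99.72 on chromosome 17 from 40287232. Nothing but the limit separates these neighbours in score, so the lower edge of the set is one of convention. A width limit removed none of the unshared strong peaks (0), and 4 strong peaks above that limit overlapped NCI-H1993. No strong peak lay outside the assembled chromosomes (0).

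The strongest site of the set was chr17:40935121-40936060, with a score of 707 over 940 bp. It stood alone: its nearest NCI-H2347 neighbour was 242 kb away, and the nearest NCI-H1993 peak 977 kb away. Second came chr5:14037995-14040018 (661), the widest of the leading 20 sites at 2024 bp, which had a weaker unshared NCI-H2347 peak 2.74 kb from its midpoint and an NCI-H1993 peak at 146 kb. Next was chr1:201435059-201436294 (527), again with a weaker unshared neighbour, at 3.46 kb. After it came chr7:142123096-142124516 (482), with a further member of the set 19.1 kb away and an NCI-H1993 peak at a similar 19.4 kb.

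Leading sites also came in company of each other. Chromosome 1 contributed chr1:153512549-153514042 (score 411) and chr1:153539780-153541704 (378), whose midpoints were 27.4 kb apart. Chromosome 12 contributed chr12:52623757-52625342 (384) and chr12:52588339-52589353 (330), 35.7 kb apart. Another site of chromosome 12, chr12:6445286-6446264 (321), lay in a stretch without any NCI-H1993 peak for 3.02 Mb. Chromosome 17 contributed chr17:55110266-55111250 (357), chr17:59414856-59416441 (339) and chr17:10459490-10460390 (327) besides the leader. The last of these had no other peak of its own list for 2.17 Mb.

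The rest of the leading 20 were spread over 7 chromosomes. They were chr14:75426162-75427171 (370), chr21:47480323-47481420 (348), chr2:204623582-204625178 (346), chr3:135686200-135687195 (332), chr15:26148002-26148973 (320), chr6:36095005-36096212 (319), chr5:160225880-160226901 (317) and chr2:20792655-20794008 (305). The chromosome 15 site bordered a gap of 10.6 Mb, the longest on its chromosome in which neither list has a peak. Such gaps can hold sequence to which reads are not assigned, and this was not tested as a source of the peak. In the whole set, 25 sites (5.49%) lay within 3 Mb of such a gap, against 13 of the 275 strong shared peaks (4.73%).

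How far the sites were from the sites of the other line was measured as the gap to the nearest NCI-H1993 peak. The median gap was 475 kb (quartiles 137 kb and 1323 kb), and 318 sites (69.9%) had an NCI-H1993 peak within 1 Mb. Weaker unshared NCI-H2347 peaks, with a score under 100, had a median gap of 444 kb (121 kb and 1296 kb, n = 1284). A gap of at most 50 kb was found for 66 sites, 14.5% (95% Wilson interval 11.6% to 18.0%), and for 15.5% (13.6% to 17.6%) of the weaker unshared peaks. A gap of at most 10 kb was found for 23 sites, 5.05% (3.39% to 7.47%), against 4.52% (3.51% to 5.80%). Both pairs of intervals overlap, and the distance curves of the classes lay close together. By score range, the median gap of the sites was 467, 410, 523, 464 and 246 kb, from the lowest range to the highest, which holds 21 sites.

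**Figure D2:**
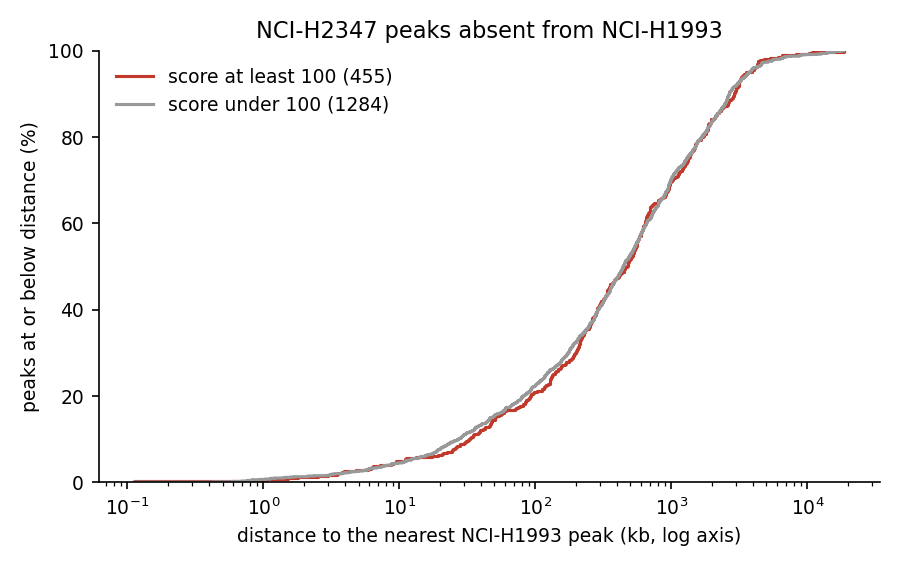
Percentage of NCI-H2347 peaks without overlap (vertical axis) whose gap to the nearest NCI-H1993 peak is at or below the distance on the horizontal axis (kb, log axis), for the 455 strong sites and 1284 peaks with a score under 100. The curves nearly coincide, with medians of 475 and 444 kb.

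The 23 sites within 10 kb of an NCI-H1993 peak were of 2 kinds. In 16 of them that NCI-H1993 peak overlapped a different NCI-H2347 peak, so the site stood beside a place occupied in both lists. The nearest of all, chr20:34673439-34674366 with a score of 180, was 114 bp from an NCI-H1993 peak that a separate NCI-H2347 peak overlapped. The same arrangement was seen at chr10:97166115-97167131 (score 177, gap 934 bp), at chr12:52623757-52625342 (gap 1059 bp) and at chr17:57919561-57921421 (score 116, gap 1513 bp). In the other 7 cases the NCI-H1993 peak was itself unshared, so that each line had its own peak within 10 kb. The closest of these was chr15:76604681-76605881, with a score of 280, which was 302 bp from an NCI-H1993 peak at 76603763 to 76604378. Of these 7 unshared NCI-H1993 peaks, 1 had a score of at least 100 in its own list.

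At the far end, 137 sites, 30.1% (26.1% to 34.5%), had no NCI-H1993 peak within 1 Mb of their midpoint. The share was 29.8% (27.3% to 32.3%) for weaker unshared peaks and 20.4% (16.0% to 25.5%) for strong shared peaks when the overlapping NCI-H1993 peak itself was not counted. The sites farthest from any NCI-H1993 peak were chrX:153960030-153960738 at 18.7 Mb, chr3:64276647-64277723 at 10.9 Mb, chr3:75481787-75482707 at 10.3 Mb, chr6:96426015-96426536 at 8.25 Mb and chr6:90795928-90796849 at 6.87 Mb. Their scores were between 101 and 167, and 4 of the 5 were below the median of the set. The last 4 also had no other NCI-H2347 peak within 1 Mb, and the X chromosome site had 1.

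A larger share of the sites than of weaker unshared peaks had other NCI-H2347 peaks close by. Another NCI-H2347 peak lay within 10 kb, midpoint to midpoint, of 91 sites, 20.0% (95% Wilson interval 16.6% to 23.9%). The share was 12.9% (11.1% to 14.8%) among weaker unshared peaks, an interval that does not meet the first, and 14.5% (10.9% to 19.2%) among strong shared peaks, whose interval overlaps it. Within 50 kb the shares were 41.1% (36.7% to 45.7%), 31.3% (28.8% to 33.9%) and 35.6% (30.2% to 41.5%) in the same order. Within 1 Mb they drew level, at 86.2%, 85.7% and 90.2%. These intervals cover counting error only and treat peaks as independent, although close pairs count from both sides.

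Of the 91 nearest neighbours within 10 kb, 53 were weaker unshared peaks (58.2%) and 28 were themselves members of the set (30.8%, 22.2% to 40.9%). For weaker unshared peaks, 82 of 165 such neighbours were of their own class (49.7%) and 51 were members (30.9%, 24.4% to 38.3%). For strong shared peaks, 25 of 40 were weaker unshared peaks (62.5%) and 7 were members (17.5%, 8.75% to 31.95%). The intervals for members overlap, and nothing particular to the sites is read from these counts. A neighbour that overlapped an NCI-H1993 peak was the nearest one for 10 of the 91 sites, 10.99% (6.08% to 19.1%). The same count for strong shared peaks was 8 of 40, 20.0% (10.5% to 34.8%), and the intervals overlap. Within that limit of 10 kb, the neighbours of the sites were at a median of 2.76 kb (quartiles 1.82 and 6.54 kb). In 73 of 91 cases the neighbour had the lower score. The sites were selected for a high score, and 1491 of the 2225 NCI-H2347 peaks scored under 100. A lower score beside a site is thus largely set by the rule, and nothing is read from this count. Whether such neighbours are separate binding sites or parts of 1 broad stretch of signal that the caller divided was not tested.

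The largest share with a close neighbour was at the strongest sites. Of the 21 sites with a score of at least 300, 11 had another NCI-H2347 peak within 10 kb, 52.4% (32.4% to 71.7%). Of the 37 strong shared peaks in that score range, 4 did, 10.8% (4.29% to 24.7%). The width limit kept 4 shared peaks with a score of at least 100 out of the strong shared class, and it removed no site. Among those left out was a peak of chromosome 1 with a score of 361 and a site 6.58 kb away. From 100 to 300 the shares were 18.4% (80 of 434) and 15.1% (36 of 238). All 11 neighbours scored lower than the site beside them. Few peaks of the list reach 300, so this was nearly fixed by the selection and nothing is read from it. Of the 11 neighbours, 2 overlapped an NCI-H1993 peak. The range from 300 upward was 1 of 5 score ranges compared, which the plan did not name. In the range from 200 to 300 the order was the other way, with 14.5% for the sites and 19.7% for shared peaks. Without the sites near a longest peak-free stretch, 10 of 19 had such a neighbour (52.6%).

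**Figure D3:**
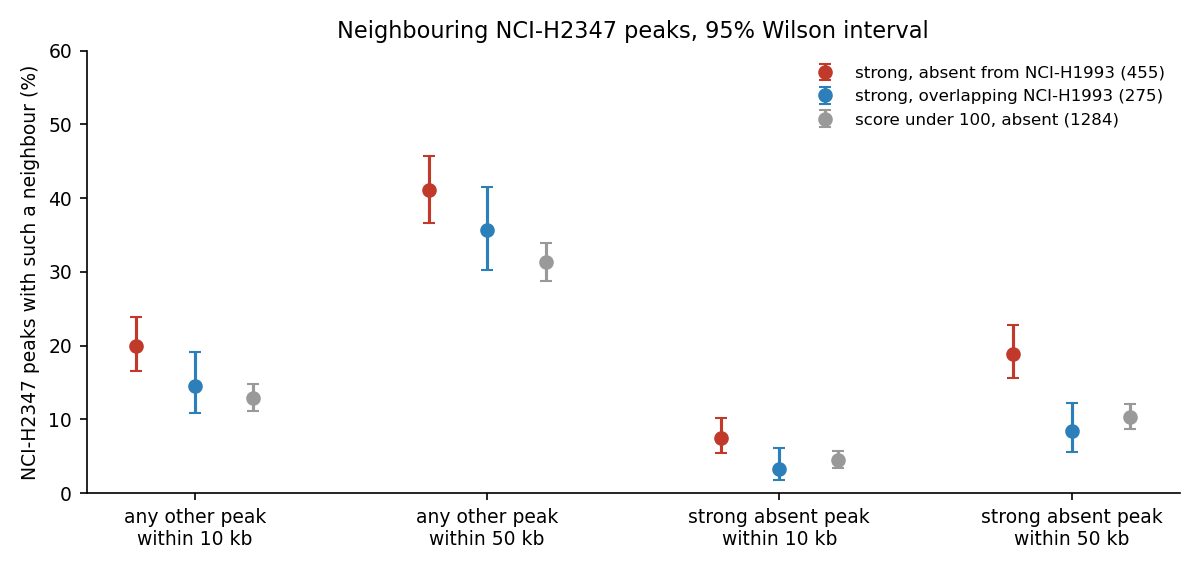
Percentage of NCI-H2347 peaks with a neighbouring NCI-H2347 peak (vertical axis), for any other peak and for a strong peak absent from NCI-H1993, within 10 or 50 kb between midpoints. Points are shares and bars 95% Wilson intervals, and the 455 strong absent sites lie highest in each of the 4 comparisons, 18.9% against 8.36% and 10.3% in the last.

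Strong absent sites also lay near each other. A further member was found within 50 kb of 86 sites, 18.9% (15.6% to 22.8%). A member was found as near to 10.3% (8.74% to 12.1%) of weaker unshared peaks and to 8.36% (5.64% to 12.2%) of strong shared peaks, and neither interval meets that of the sites. Within 10 kb the shares were 7.47% (5.40% to 10.3%), 4.44% (3.44% to 5.71%) and 3.27% (1.73% to 6.10%) in the same order. At that distance the interval of the sites overlaps both of the others. Pairs of sites count from both sides here too, and the intervals treat peaks as independent. Strong shared peaks were found within 50 kb of 5.49% (3.75% to 7.99%) of the sites, 8.36% (5.64% to 12.2%) of other strong shared peaks and 6.46% (5.24% to 7.94%) of weaker unshared peaks. The 275 strong shared peaks are fewer than the sites, so these last shares are not set against those for members. They were highest for strong shared peaks themselves, and the intervals of all classes overlap.

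Chained at 100 kb or less between midpoints, 103 sites (22.6%, 19.0% to 26.7%) formed 48 groups, 41 pairs and 7 groups of 3, while 352 stood alone. Chained among their own kind in the same way, 29.4% (27.0% to 32.0%) of the 1284 weaker unshared peaks and 8.36% (5.64% to 12.2%) of the 275 strong shared peaks were in a group. The classes differ in size, and a larger class forms more chains, so these shares do not rank the classes. For the sites it was 18.9% with chains of 50 kb and 14.6% among the 192 sites with a score of at least 150. No NCI-H1993 peak lay within 100 kb of the span of 36 of the 48 groups, 75% (61.2% to 85.1%). The same held for 283 of the 352 sites that stood alone, 80.4% (75.9% to 84.2%), and for 110 of 166 groups of weaker unshared peaks, 66.3% (58.8% to 73.0%). The interval of the groups of sites overlaps both of the others, and nothing particular to them is read from this count.

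The group with the highest summed score lay on chromosome 1 and spanned 62.7 kb. Its members were chr1:153479027-153480284, with a score of 120, and the leading sites at 153512549 and 153539780 with 411 and 378. Between the first of them and the other two lay a shared NCI-H2347 peak at 153505162 to 153508271, with a score of 361 and too wide at 3110 bp to count as a strong shared peak. The NCI-H1993 peak under it had a score of 67.5. The 62.7 kb thus held a place listed in both lines and 3 strong sites listed in NCI-H2347 alone.

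The group on chromosome 12 that spanned 39.3 kb was of the same kind. It held chr12:52586013-52586967 (score 125) and the leading sites at 52588339 (330) and 52623757 (384). The stretch from 52621930 to 52623072 was a shared NCI-H2347 peak (score 136), as was that from 52629544 to 52630498 (80.8), and 3 weaker unshared peaks lay around them. The 2 shared positions were the 2 NCI-H1993 peaks within 100 kb of the group.

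Of the next groups, 4 had no NCI-H1993 peak in their span or within 100 kb of it. On chromosome 15, within 31.1 kb, lay chr15:74675881-74677017 (127), chr15:74688885-74690345 (248) and chr15:74706157-74706973 (293). These were all the NCI-H2347 peaks of that stretch. On chromosome 14, within 28.2 kb, the leading site at 75426162 (370) was accompanied by chr14:75398924-75399626 (120) and chr14:75406508-75407251 (148). The chromosome 17 group, spread over 90.0 kb, joined the leading site at 59414856 (339) with chr17:59433540-59434599 (139) and chr17:59503903-59504873 (102). The remaining one, on chromosome 12 around the leading site at 6445286 (321), held 123 from 6383103 and 110 from 6421794 as further scores. That group and the last, the tightest of the 7, were named after their values had been seen. The last spanned 15.9 kb on chromosome 2, with scores of 220 from 219147211, 119 from 219148730 and 156 from 219162593. An unshared NCI-H1993 peak, with a score of 63.1 in its own list, lay 9.38 kb from its first member.

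**Figure D4:**
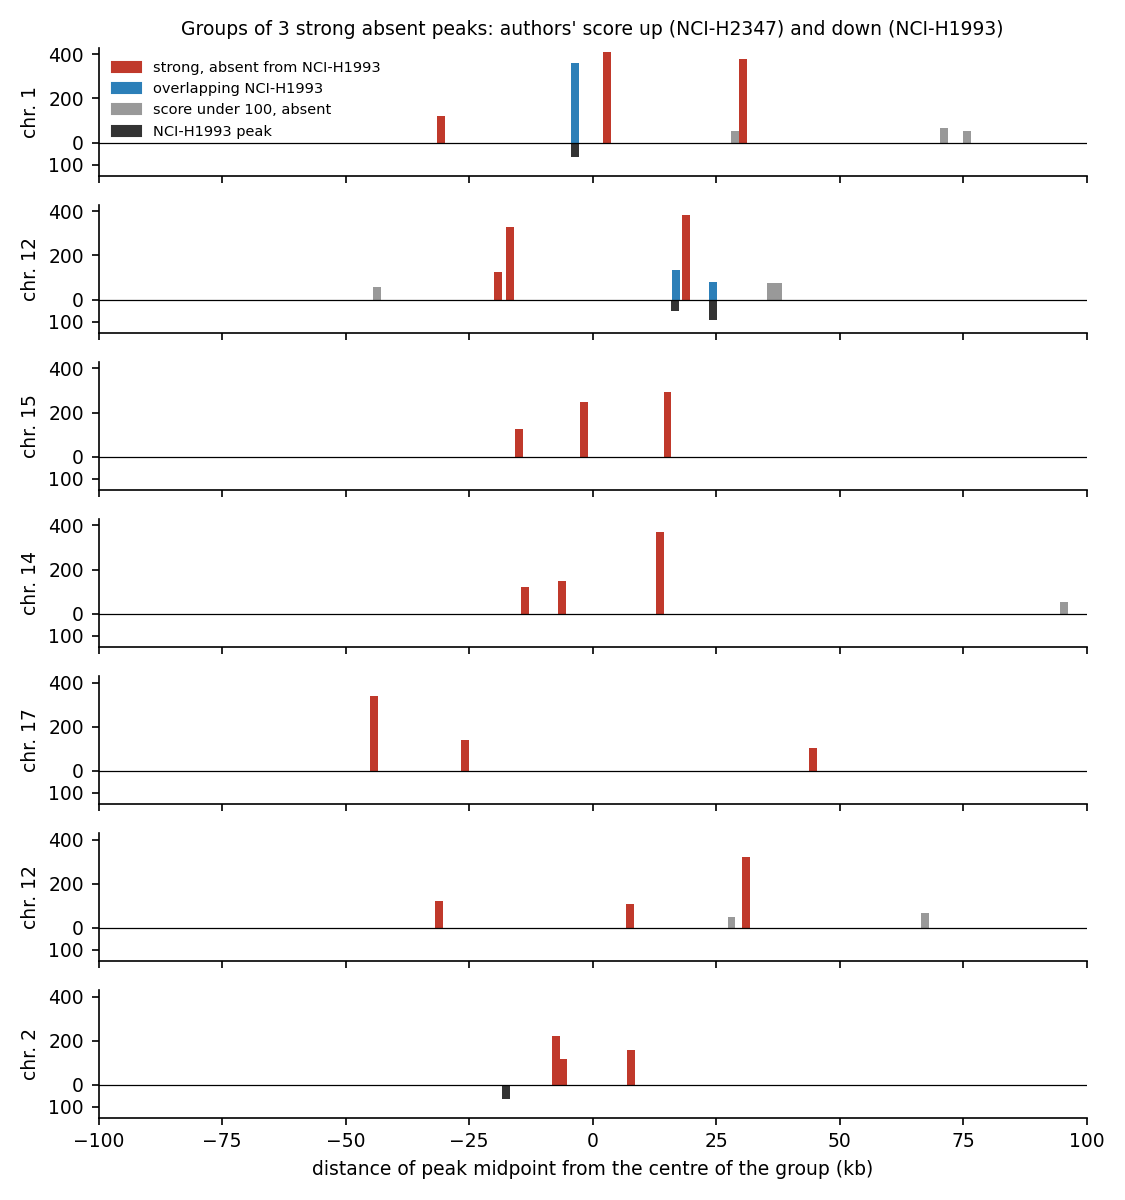
Peaks around the 7 groups of 3 strong sites, 1 group per row, by distance of the midpoint from the centre of the group (kb). Bar height is the authors' score, upward for NCI-H2347 and downward for NCI-H1993 (separate scales of 2 lists), and bar width is not peak width; NCI-H1993 peaks appear in 3 of the 7 rows.

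Over 1 Mb windows, the 455 sites fell into 360, of which 290 held a single site. The most in any window was 4, reached by those that start at 48000001 on chromosome 17, at 75000001 on chromosome 14 and at 59000001 on chromosome 1 (named after their values had been seen). They held 12, 8 and 5 NCI-H2347 peaks of any score and 1, 0 and 1 of NCI-H1993. No peak of NCI-H1993 was listed in 176 of the 360 windows, 48.9% (43.8% to 54.0%), against 435 of the 834 windows that held a weaker unshared peak, 52.2% (48.8% to 55.5%).

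The sites occurred on 23 chromosomes, all on which either class of strong peak was found. Chromosome 1 held 60 sites (13.2%), chromosome 2 held 41 (9.01%), chromosome 17 held 37 (8.13%) and chromosome 12 held 36 (7.91%). Of the strong shared peaks, 11.6%, 8.36%, 6.18% and 6.55% lay on these chromosomes, in the same order. Of the weaker unshared peaks it was 12.0%, 7.94%, 6.78% and 6.07%. On each of them the interval of the sites, 10.4% to 16.6% on chromosome 1, contains both other shares. Nothing is read from these counts. Chromosome 10 held 2.86% of the sites (1.68% to 4.83%), below the 6.91% and 5.45% of these classes. Read as the part of strong NCI-H2347 peaks on a chromosome that was absent from NCI-H1993, 2 of the 23 intervals did not contain the overall 62.3%. On chromosome 10 the part was 40.6% (13 of 32, 25.5% to 57.7%), and on chromosome 19 it was 40.0% (10 of 25, 23.4% to 59.3%). On the X chromosome 9 of 10 strong peaks were absent, 90.0% (59.6% to 98.2%), where NCI-H1993 had 26 peaks of any score and NCI-H2347 had 45. Differences in the number of copies of a chromosome between the lines were not measured. With 23 intervals read at once, some miss the overall value by counting error alone.

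**Figure D5:**
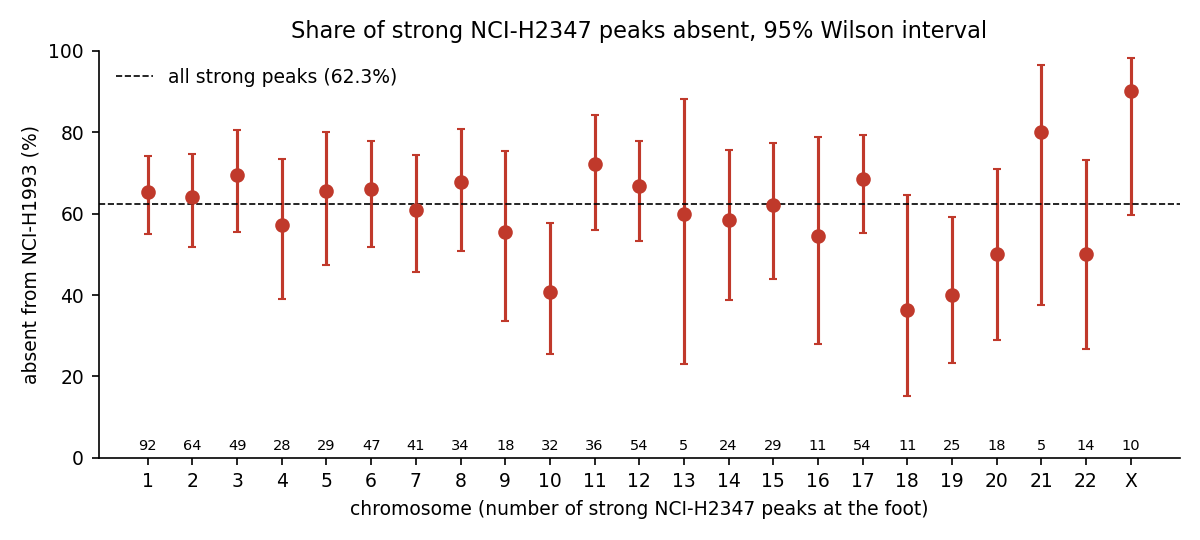
Percentage of strong NCI-H2347 peaks absent from NCI-H1993 (vertical axis) on each chromosome, with 95% Wilson intervals and the number of strong peaks at the foot. The dashed line is the 62.3% of all strong peaks; the intervals of chromosomes 10 and 19 end below it.

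In median width the sites differed little from strong peaks found in both lists. Their median width was 968 bp (quartiles 816 and 1087 bp), and that of the strong shared peaks was 990 bp (822 and 1135 bp). Weaker unshared peaks were narrower, at 765 bp (642 and 904 bp), as peaks of lower score were in general. In the score ranges from 100, 120, 150, 200 and 300 upward, the median of the sites was 845, 1008, 982, 1053.5 and 1098 bp. For strong shared peaks it was 874, 870.5, 1007, 1053 and 1123 bp. The sites had the lower median in the ranges from 100, 150 and 300 upward and the higher one in the range from 120. In the range from 200 the medians were nearly equal. No width difference thus had the same direction in every range.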

How the data were processed

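PPARG ChIP-seq peak lists of 2 libraries, 1 each from NCI-H2347 and NCI-H1993, were analysed. MACS 1.4.2 and build hg19 are named in the submitters' processing notes. How reads were aligned and filtered, which threshold applied and how the inputs were used is not given in the labels. The deposited score of each peak is the authors' own value, and here it served to order and select peaks of 1 list at a time. Read depth is unknown.

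Starts were converted to 1-based positions. Overlap meant at least 1 shared base, gaps to NCI-H1993 peaks were measured between edges, and distances between NCI-H2347 peaks between midpoints. Strong shared peaks met the same limits of score (100) and width (2500 bp), and weaker unshared peaks scored below 100. Intervals of shares are 95% Wilson intervals and reflect counting error alone. No test was run, since each line had 1 library.

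The sites and their rule were chosen with earlier results of these lists known. Named were the 20 highest-scoring sites, the 5 largest groups, 3 peaks on either side of the score limit, and the 5 sites nearest to and farthest from NCI-H1993 peaks. Planned gene context, motifs and gene lists needed an hg19 reference and were not run. The code was tested on simulated lists and ran under Python 3.11.15 with pandas 2.3.3, scipy 1.17.1, matplotlib 3.10.9 and numpy 2.4.6.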

Additional observations from a re-analysis of the deposited data

How the results depend on the processing

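The number of sites was 723 with a score of at least 80 and 192 with a score of at least 150, and between 430 and 474 under the other 5 alternatives (NCI-H1993 peaks kept 1 or 10 kb away, midpoints over 250 bp apart, no width limit, and no site within 3 Mb of the longest peak-free stretch of its chromosome, the last an alternative added with the data in view). The share of sites in a group was 22.6% as reported, 18.9% with chains of 50 kb and 14.6% with a score of at least 150. Shorter chains can only lower this share. With a score of at least 150 there were fewer sites to pair, and why the share fell was not tested. The share wider than the median strong shared peak was 45.1% as reported (40.5% to 49.6%). It was 40.1% with a score of at least 150, just below that interval, and 49.4% with midpoints over 250 bp apart, within it. The cause was not tested. The share within 50 kb of an NCI-H1993 peak stayed between 14.4% and 15.6% under every alternative run for it. The shares of all sites that lay on chromosomes 1, 10, 17 and X stayed within their intervals under the alternatives run for them. The part of strong peaks absent on each chromosome, low on chromosomes 10 and 19, was not recomputed under the alternatives. Alternatives for gene context and motifs were not run. No paired analysis was possible because each line had 1 ChIP library. Without known depth, absence from the NCI-H1993 list is not evidence of an unbound site.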
